A study of Mus musculus with 4 samples.

Results

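The 10 genes described here encode proteins of lysosomal protein breakdown: the cysteine cathepsins Ctsb, Ctsc, Ctsh, Ctsl, Ctss and Ctsz, the aspartic protease Ctsd, the serine carboxypeptidase Ctsa, the asparaginyl endopeptidase legumain (Lgmn), and stefin B (Cstb), an inhibitor of cysteine cathepsins. They were taken by symbol from the deposited expression tables, and all 10 were found in the table of malignant cells, which lists 17992 genes, and in that of non-malignant cells, which lists 16349. The tables together hold 18220 genes. The set was chosen by measured mean levels per mouse, for opposite differences with digoxin in malignant and in non-malignant cells, although not each of the 10 shows them, so the differences between the treatment groups of these genes are given as descriptions. Counts of called genes come from fits over whole tables, and nothing is read from a call of 1 of the 10.

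The samples were dissociated hind limb sarcomas grown as allografts in 129/SvJae mice, from a tumor model with conditional Trp53 alleles that both groups share. Digoxin is a cardiac glycoside, an inhibitor of the sodium-potassium pump. It was injected into the peritoneum of 2 mice at 2 mg/kg every 24 h, and the tumors were taken after dose 4. The 2 vehicle mice received phosphate-buffered saline on the same schedule. Each tumor gave 1 droplet 3′ single-cell library, so a group holds 2 mice and the spread between mice rests on 2 values a group. The labels do not say whether the tumors were implanted from 1 cell preparation, and p-values measure the spread between these samples. The malignant cells and the cell types (Macrophage, Microglia, T cell and so on) are those of the deposited annotation.

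Cathepsins are made as inactive precursors, sorted to lysosomes and activated there by the low pH that the vacuolar proton pump maintains. Most of them break down proteins delivered by endocytosis and autophagy. In macrophages and dendritic cells Ctss and Lgmn also take part in processing antigens and the invariant chain. Tumor cells and tumor macrophages can both secrete cathepsins, which then act on the extracellular matrix. Many lysosomal genes carry an E-box with the core CACGTG near their start, the motif bound by the transcription factors TFEB, TFE3 and MITF.

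Promoter sequence from RefSeq, on the mouse build GRCm38.p6 (mm10), was matched by symbol for 7 of the 10 genes, with 9 start sites. Ctsb, Ctsh and Cstb were not matched. The CACGTG core, which reads the same on both strands, was found within 250 bases before to 50 bases after a start site in 4 of the 7 genes (Ctsa, Ctsd, Ctsl and Lgmn). It was found in 7.15% of all 32851 promoters of the same 300 bases, the longer form GTCACGTG or its reverse CACGTGAC in 2.25%, and TCACGTGA in 0.974%. The longer forms contain the core, so these shares overlap. They count promoters and not genes. Ctsa and Lgmn each also had a start site without the core, so 4 of the 9 start sites carried the core. The 30-base windows around these matches are shown because they are the sequence feature that several of these genes share; each is written 5′ to 3′ on the strand of its gene, with the core in capitals.
Ctsa: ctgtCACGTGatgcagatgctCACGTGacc
Ctsd, distal: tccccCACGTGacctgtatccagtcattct
Ctsd, proximal: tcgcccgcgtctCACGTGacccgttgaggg
Ctsl: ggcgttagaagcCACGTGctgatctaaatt
Lgmn: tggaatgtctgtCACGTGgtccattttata
The Ctsa window (chr2:164833757-164833786, plus strand) held the core at 12 bases before and again at 5 bases after a RefSeq start, in a stretch that GENCODE M21 annotates as an untranslated exon of Ctsa. The Ctsd windows lay on the minus strand at chr7:142388048-142388077 and chr7:142387908-142387937, with the core 245 and 98 bases before the RefSeq start. GENCODE M21 has no gene at the distal window and an untranslated exon of Ctsd at the proximal window. The Ctsl window (chr13:64370739-64370768, minus strand, core 236 bases before the start) also fell in an annotated untranslated exon of Ctsl. The Lgmn window (chr12:102439124-102439153, minus strand, core 49 bases before the second of its RefSeq starts) lay in an intron of Lgmn. A match describes these letters only; binding was not measured here.

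In mm10 the genes lie on 8 chromosomes. Ctsa (chr2:164832873-164841032) overlaps Neurl2 and Pltp on the opposite strand, Ctsz (chr2:174427493-174439039) overlaps Nelfcd, Ctsb (chr14:63122462-63145923) overlaps Fdft1, and Ctsc (chr7:88278085-88310888) overlaps Gm26522. Ctsd (chr7:142375911-142388038) shares its strand with Gm49369, Ctsl (chr13:64359337-64370890) with Gm49230 and Ctss (chr3:95526786-95556403) with Hmgb1-ps5. Ctsl also overlaps Gm47123 on the opposite strand. Strand use in counting is not given in the sources used here, so reads in these overlaps could belong to either gene. Ctsh (chr9:90054152-90076089), Lgmn (chr12:102394084-102439813) and Cstb (chr10:78425669-78427622) overlap no other annotated gene.

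There were 3976 to 6269 malignant and 3014 to 3344 non-malignant cells per mouse, with medians of 46799 to 57658 and 15837 to 16671 UMIs (unique molecular identifiers, each marking 1 captured transcript) per cell. Of 31498 barcode sequences, 113 occurred in more than 1 mouse, and 0 cells were in both tables. Vehicle mouse 2 stood apart: Xist, the RNA of the inactive X chromosome, was at 0.161 CPM (UMIs per 1000000 UMIs of the cell) in its macrophages and at 635.3 to 753.3 in those of the other mice, and the Y-linked Ddx3y was at 87.7 against 1.74 to 2.28. Malignant cells of all 4 mice carried Ddx3y, at 43.1 to 49.3 CPM. The type deposited as Microglia carried markers of plasmacytoid dendritic cells (Siglech, Bst2, Ly6d), which summed to 6352 to 6661 CPM against 179 to 260 in the Macrophage type, while the microglial markers in the files summed to 14.5 to 34.3 against 39.0 to 82.8. The type deposited as Epithelial carried endothelial markers at 2182 to 2341 CPM and epithelial markers at 5.93 to 19.3 CPM. Both are called by their deposited names.

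Where the 10 genes were expressed separated them into a macrophage-high majority and a few exceptions. A level here is the mean over the cells of 1 mouse of CPM, and the order of the 8 populations with enough cells is given by the mean ± SD over 4 mice, both treatments together. Levels are compared within a gene and not between genes. Among the cysteine cathepsins, Ctss, an enzyme of antigen presentation, had 1564 ± 87.1 CPM in macrophages, then 662.5 in the Microglia type, and its lowest mean was in malignant cells, at 28.9 ± 3.9, a range that overlapped those of the Fibroblast and Epithelial types. The macrophage level was 43.6 to 60.1 times that of the malignant cells of the same mouse. Ctsc, which activates granule serine proteases, showed the same extremes, with 1533 ± 101 CPM in macrophages, 294.5 in the Microglia type and 29.1 ± 4.5 in malignant cells, a ratio of 44.8 to 58.4. Ctsh, an aminopeptidase, was highest in the Microglia type, at 1531 ± 152 CPM, followed by macrophages at 373 ± 42.5, whose range overlapped that of the Fibroblast type. Its lowest levels, 12.1 CPM in malignant cells and 10.4 CPM in NK cells, overlapped.

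Ctsl, a cysteine endopeptidase, was the exception: malignant cells were highest, at 2377 ± 163 CPM, with no overlap with the Microglia type at 1798 ± 92.1 CPM. The Epithelial, Fibroblast and Macrophage types followed at 1003, 896.5 and 825 CPM with overlapping ranges, and the T cell, Osteoclasts and NK types lay at 116 to 159.5 CPM. The malignant level of Ctsl was 2.37 to 3.67 times that of macrophages of the same mouse. Ctsb, also an endopeptidase, was highest in macrophages, at 1944 ± 78.1 CPM. Malignant cells, at 617 ± 32.7 CPM, overlapped the Fibroblast type at 658 ± 142 CPM. Ctsz, a carboxypeptidase, was at 989.5 CPM in macrophages, overlapping the Microglia type at 939 CPM, and at 257 CPM in malignant cells.

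Outside the cysteine cathepsins, Ctsd was highest in macrophages, at 1129 ± 60.6 CPM, then in NK cells at 697.5 ± 71.5 CPM, which overlapped the Osteoclasts type. Malignant cells were lowest for Ctsd, at 182.5 CPM, overlapping the Microglia type. Lgmn, which cleaves after asparagine and trims other cathepsins, was at 1669.5 ± 152 CPM in macrophages and at 173 ± 25.5 CPM in malignant cells. Ctsa, which also protects other lysosomal enzymes in a complex, was at 469 ± 86.5 CPM in the Osteoclasts type and at 356 ± 30.2 CPM in macrophages, with overlapping ranges. Cstb was highest in the Osteoclasts type, at 1548 ± 91.4 CPM, then in macrophages at 674.5 ± 87.6 CPM and in malignant cells at 495 ± 19.5 CPM, with no overlap between these 3. The ratio of its macrophage to its malignant level, 1.11 to 1.66, was the smallest among the 9 genes that macrophages held at the higher level.

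**Figure D1:**
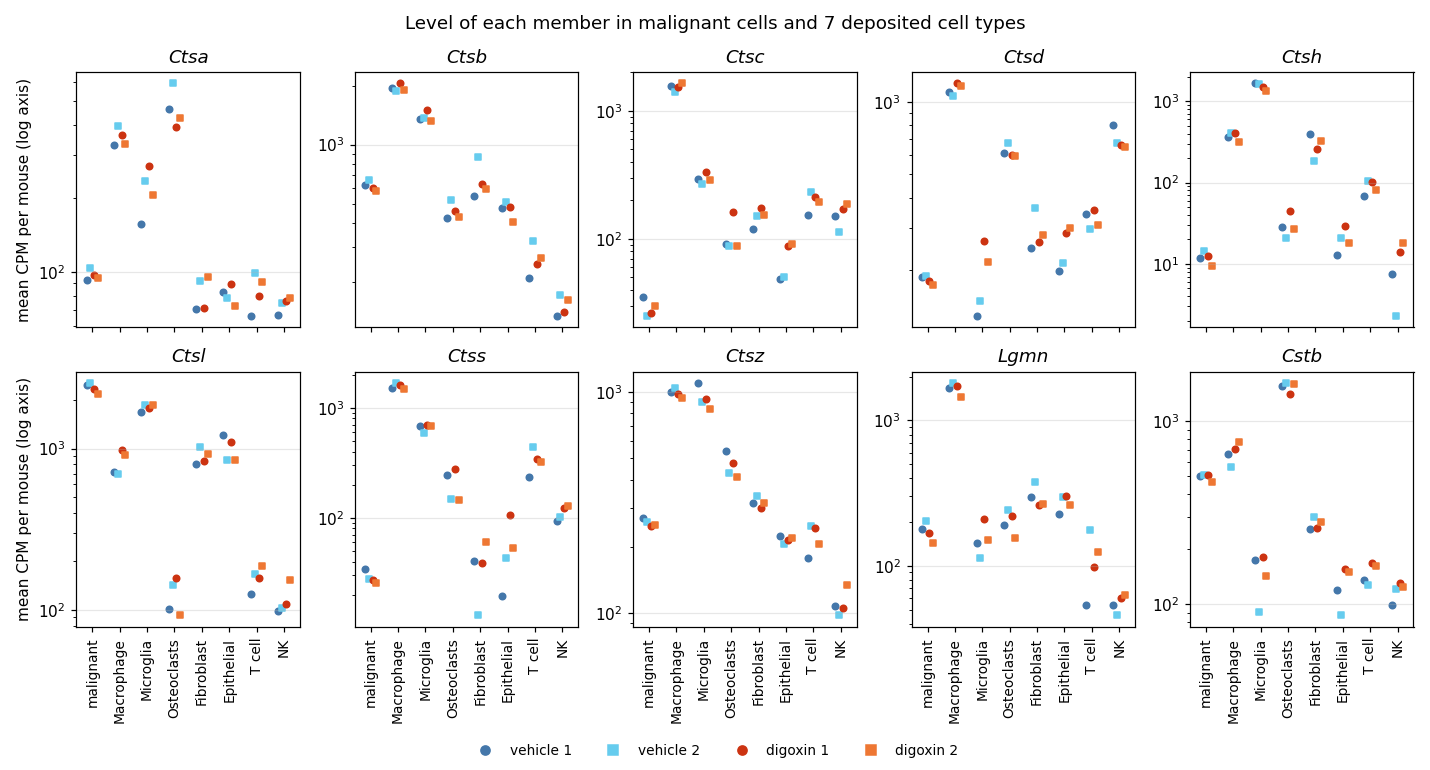
Mean CPM of each gene (log vertical axis, own scale per panel) in malignant cells and 7 deposited cell types; each point is 1 mouse, circles and squares are replicates 1 and 2, blue vehicle and red digoxin. Macrophages sit highest for Ctsb, Ctsc, Ctsd, Ctss and Lgmn, while malignant cells sit highest for Ctsl, between 2172 and 2541 CPM.

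In malignant cells all 10 genes had a slightly lower mean in the digoxin mice, with a median log2 difference (digoxin minus vehicle, of the mean log2 of CPM + 1) of -0.10 against -0.01 over all 17138 genes tested. Of all genes tested 8090 were above 0. The direction was the same for all 10 with TMM scaling of summed UMIs, edgeR and DESeq2. These settings use counts of the same mice on whose differences the genes were chosen, so nothing is read from that. Without doublets 1 of the 10 lay above 0 (Ctsc, 0.14), as did 1 with each mouse left out: Ctsc without vehicle mouse 1 (0.16) or digoxin mouse 1 (0.02), Ctsa without vehicle mouse 2 (0.05) and Cstb without digoxin mouse 2 (0.00). In 6 genes the digoxin mice were both lower than either vehicle mouse, and in 0 genes both higher. Over all genes 16.5% had both digoxin mice below and 12.8% above. No gene of the table was called by limma at an adjusted p of 0.05 (0%; 585 genes had an unadjusted p under 0.05, 0 called by edgeR and 45 by DESeq2, none of them among the 10).

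Values of single mice are given with replicate 1 before replicate 2 throughout. Ctsl was at 2468 and 2541 CPM in the vehicle mice and at 2327 and 2172 CPM in the digoxin mice, a log2 difference of -0.16 (SE 0.09). Ctsb was at 622.5 and 660.0 CPM with vehicle and at 602.5 and 583.5 CPM with digoxin, a log2 difference of -0.11 (SE 0.07). In both genes every digoxin mouse was below every vehicle mouse. An SE here comes from the limma fit, which pulls each gene's spread between mice toward that of all genes of similar level. The genes were chosen on such values, so an SE is not read as a test. Lgmn was at 178.2 and 204.2 CPM with vehicle and at 167.5 and 142.6 CPM with digoxin, -0.30 on the log2 scale (SE 0.11). Ctsd was at 187.7 and 189.0 against 180.3 and 173.1 CPM (-0.09, SE 0.06), and Ctsz at 270.5 and 257.6 against 247.7 and 251.3 CPM (-0.08, SE 0.07). These also did not overlap between the groups. For Ctsa (-0.03), Ctsc (-0.07), Ctsh (-0.23) and Cstb (-0.06) the groups overlapped; Cstb, the inhibitor, was at 501.0 and 508.4 CPM with vehicle and 505.6 and 466.4 CPM with digoxin.

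Ctss was at 34.5 and 27.8 CPM with vehicle and at 27.4 and 25.8 CPM with digoxin in malignant cells, a log2 difference of -0.21 (SE 0.12). Macrophage markers in these cells were lower with digoxin too. The 10 macrophage markers (Csf1r, C1qa, C1qb, C1qc, Adgre1, Lyz2, Tyrobp, Fcer1g, Mrc1 and Ms4a7) summed to 678.4 and 689.9 CPM in malignant cells of the vehicle mice and to 522.3 and 536.6 CPM in those of the digoxin mice, with none of the 10 at 0, against 24616 to 35752 CPM in the Macrophage type. Cells with a UMI of 8 or more of the 10 markers made up 9.01% and 5.87% of the malignant cells with vehicle and 5.63% and 5.18% with digoxin. Thinned to 5000 UMIs per cell, which left out 4 to 9 cells per mouse, the shares were 3.89% and 3.43% against 2.38% and 2.07%. In the Macrophage type the share was 78.3% to 89.7%, or 69.4% to 83.8% after thinning. T cells gave 3.83% to 17.3%, or 3.01% to 15.1% after thinning, and NK cells, which themselves express Tyrobp and Fcer1g, 1.45% to 4.26%, or 1.49% to 3.68%. The doublet caller Scrublet marked 71.2% to 87.8% of the malignant cells with 8 or more markers, and their median depth was 62464 to 75924 UMIs against 45528 to 55817 in the other malignant cells.

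These few cells held most of the Ctss and Ctsc of the malignant compartment, 75.0% to 85.3% and 76.6% to 85.7% of the UMIs. They held 37.4% to 58.2% of Ctsh UMIs and 4.99% to 7.72% of Ctsl UMIs. Without them Ctss was at 6.76 and 5.82 CPM with vehicle and at 8.31 and 8.53 CPM with digoxin, a log2 difference of 0.37, and Ctsc was at 6.56 and 4.86 against 7.87 and 9.56 CPM, a difference of 0.54. For both genes the digoxin mice then lay above the vehicle mice, so the direction turned. The marker sum also turned, to 100.5 and 120.6 CPM with vehicle and 132.5 and 156.2 CPM with digoxin. Ctsh went to 0.01, and Ctsa to 0.00. Ctsl kept its order, at 2540 and 2576 against 2368 and 2197 CPM (-0.17). Lgmn was at 133.4 and 176.3 against 142.0 and 122.5 CPM (-0.22), and the groups overlapped. The median over the 10 was then -0.04, with 3 above 0. Of the 6 genes with separate groups, Ctsb, Ctsd and Lgmn overlapped without these cells, while Ctsl and Ctsz (-0.07) stayed lower in both digoxin mice. That makes 2 of the 10 below and 2 above, where 14.8% of all genes lay each way. The number of 8 markers and the depth of 5000 UMIs were chosen after the data were seen; with a lower limit of 3 markers Ctss was at 0.33, Ctsc at 0.60 and Ctsl at -0.15.

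The malignant level of Ctss can be set beside that of Xist. In the 3 mice whose macrophages carry Xist, its level in malignant cells was 2.57% (vehicle 1), 2.24% (digoxin 1) and 2.02% (digoxin 2) of that in macrophages. In these mice Ctss in malignant cells was at 2.29%, 1.71% and 1.74% of its macrophage level, and Ctsc at 2.23%, 1.71% and 1.84%. For Ctsl the same share was 237% to 367% over the 4 mice, and for Ctsb 29.4% to 35.3%. Per 1000 CPM of summed macrophage markers, Ctss was at 40.3 to 52.4 CPM in malignant cells and at 46.7 to 62.1 CPM in macrophages, whereas Ctsl was at 3637 to 4455 against 19.4 to 38.2. The part of macrophage RNA or of doublets in these levels was not tested. Their part in the difference between treatment groups was not tested beyond leaving out malignant cells with macrophage markers or marked as doublets.

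**Figure D2:**
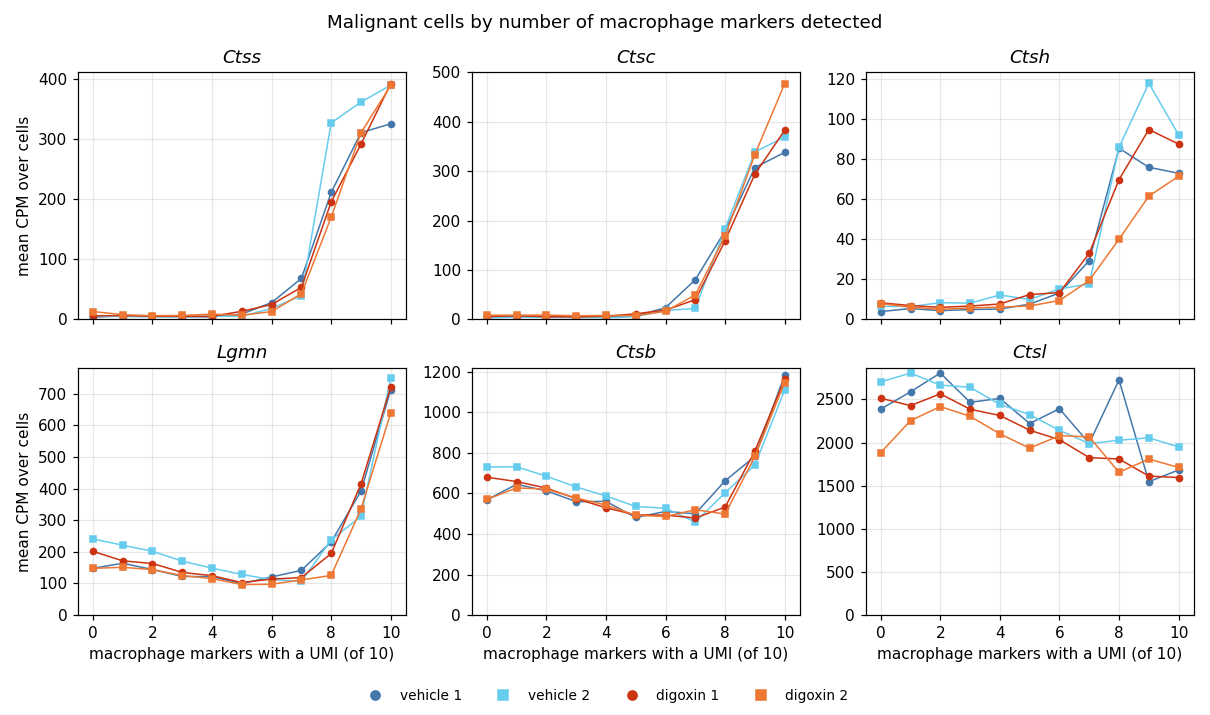
Mean CPM of 6 genes in malignant cells (vertical axis, from 0) by the number of the 10 macrophage markers with a UMI in the cell (horizontal axis); 1 line per mouse, circles and squares for replicates 1 and 2, blue vehicle and red digoxin, 29 to 1493 cells per point. Ctss, Ctsc and Ctsh stay low up to 5 markers and rise from 6 on. Ctss is at 13.1 to 28.0 CPM at 6 markers, 39.5 to 68.1 at 7 and 325 to 392 at all 10. Lgmn and Ctsb reach 639 to 749 and 1109 to 1183 CPM at all 10 markers, while Ctsl does not rise, with 1595 to 1949 CPM.

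Over all non-malignant cells, Ctsl and Cstb were higher with digoxin. Ctsl was at 673.4 and 696.9 CPM with vehicle and at 895.3 and 840.8 CPM with digoxin, a log2 difference of 0.34 (SE 0.09). Cstb was at 571.3 and 560.3 against 626.1 and 694.6 CPM (0.22, SE 0.09). For Ctsl the step between the groups was wider than that between mice of either treatment; for Cstb it was narrower than that between the digoxin mice. Ctsd was at 957.6 and 945.0 against 1057 and 1045 CPM (0.14, SE 0.08), and Ctsc at 1284 and 1163 against 1299 and 1409.5 CPM (0.15). Ctsb, at 1639.7 and 1616 against 1764 and 1665 CPM (0.07), was the fifth gene with both digoxin mice above. Ctsz was the single gene with both below, at 862.1 and 913.0 against 859.1 and 833.2 CPM (-0.07). Ctsa, Ctsh, Ctss and Lgmn overlapped between groups, at -0.05, -0.09, 0.00 and -0.09. The median over the 10 was 0.04, against -0.02 over 14879 genes, and 12.4% of all genes had both digoxin mice above and 20.6% both below. The mix of types differed between mice. Vehicle mouse 2 held 152 cells of the Osteoclasts type, against 28 to 47 in the other mice, and all 30 Unknown cells. Ctsb was at 457 CPM in the Osteoclasts type and at 1944 CPM in macrophages. The part of this mix in these means, and in the gap to malignant cells, was not tested. No gene was called by limma (0%, 581 at an unadjusted p under 0.05, 0 by edgeR, 30 by DESeq2 with none of the 10 among them).

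Most non-malignant cells were macrophages, and there Ctsl, Cstb and Ctsd separated the groups upward, while Ctsb and Ctsc overlapped. In the Macrophage type Ctsl was at 718.1 and 692.2 CPM with vehicle and at 981.3 and 910.3 CPM with digoxin (0.42, SE 0.11). Cstb was at 661 and 563 against 701 and 773 CPM (0.27, SE 0.12), and Ctsd at 1096 and 1062 against 1194 and 1163 CPM (0.13). Both digoxin mice lay above both vehicle mice for these 3 genes and below for Ctsz (-0.09), with 13.6% of 13734 genes above and 17.3% below. The deposited annotation splits macrophages into sub-clusters named M1, M2 and Highly proliferative M2. M1 made up 45.3% and 29.0% of macrophages with vehicle and 47.6% and 42.5% with digoxin, so vehicle mouse 2 held fewer M1 and more M2 cells (61.5% against 39.2% to 43.5%). With the 3 sub-clusters weighted equally in each mouse, Ctsl was at 649.2 and 612.4 against 827.7 and 830.4 CPM, a log2 difference of 0.39, Cstb at 0.24 and Ctsd at 0.19. No gene was called in the Macrophage type (0%, 555 at an unadjusted p under 0.05 by limma, 0 by edgeR, 20 by DESeq2).

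The sub-clusters differed in which of the 10 genes they carried. Lgmn was 2.33 to 2.50 times higher in M2 than in M1 cells of the same mouse, Ctsb 1.67 to 2.02 times and Ctsa 1.31 to 1.37 times. The ratio was below 1 in all 4 mice for Ctsh (0.466 to 0.605), Ctss (0.698 to 0.787), Cstb (0.665 to 0.976) and Ctsz (0.865 to 0.992). Ctsc and Ctsd were higher in M2 in 3 of 4 mice and Ctsl in 1 of 4. Against M2, the Highly proliferative M2 cells were lower in all 4 mice for 8 genes, while Cstb was 1.03 to 1.11 times higher and Ctsc higher in 1 mouse. Since the clusters were made from these cells' expression, the contrasts between them are descriptions.

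In M1 cells the widest differences between treatments among the 10 genes were those of Ctsl, Ctsd and Cstb. Ctsl was at 918.9 and 694.7 CPM with vehicle and at 1439.9 and 1205 CPM with digoxin, a log2 difference of 0.72 (SE 0.16). Every digoxin mouse was above every vehicle mouse, and the step from the higher vehicle mouse to the lower digoxin mouse was wider than that between mice of either treatment. Without vehicle mouse 1 the difference was 0.92 and without vehicle mouse 2 it was 0.52, with 0.59 and 0.85 when a digoxin mouse was left out. Ctsd was at 1116 and 697.6 against 1275 and 1182 CPM (0.48, SE 0.21). Its difference rested on vehicle mouse 2: it was 0.14 without that mouse and 0.81 without vehicle mouse 1. Cstb was at 745.3 and 571.5 against 842.7 and 892.3 CPM (0.41, SE 0.14), or 0.22 without vehicle mouse 2 and 0.60 without vehicle mouse 1.

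The other genes of M1 showed no common direction. Ctsz was lower in both digoxin mice, at 1117 and 1074 against 1023 and 1003 CPM (-0.11). Ctsb was at 1478 and 1151 against 1619.6 and 1474 CPM (0.24, SE 0.15), 0.06 without vehicle mouse 2 and 0.42 without vehicle mouse 1. Ctsh, at 498.2 and 671.9 against 526.5 and 428.4 CPM (-0.28), was at -0.07 without vehicle mouse 2 and -0.50 without vehicle mouse 1. In M1, 3 of the 10 genes had both digoxin mice above and 1 both below, with 15.3% and 24% of 12182 genes doing so. No gene was called by limma (0%, 942 at an unadjusted p under 0.05) or by edgeR; DESeq2 called 42 genes (0.345%), of which Ctsl was the single gene of the 10.

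In M2 cells Ctsl did not separate the groups, at 600.8 and 734.9 CPM with vehicle and at 597.3 and 738.9 CPM with digoxin, a log2 difference of 0.00 (SE 0.16). The spread between mice of 1 treatment was there as large as the range over all 4. Ctsc was the single gene of the 10 with both digoxin mice above, at 1544 and 1425 against 1625 and 1755 CPM (0.19), where 15% of all genes lay above and 11.7% below. Ctsd was at -0.02 and Cstb at 0.12. In Highly proliferative M2 cells Ctsl was at 428 and 408 against 446 and 548 CPM (0.24), Ctsd at 685 and 626 against 748 and 736 CPM (0.18) and Ctsb at 1346 and 1135 against 1439.5 and 1349 CPM (0.17), each with both digoxin mice above, while Ctsz was below. The nearest mice of the groups were close, at 428 and 446 CPM for Ctsl and at 1346 and 1349 CPM for Ctsb. The shares over all genes were 17.4% above and 12.6% below. Limma called 0 genes in either sub-cluster (286 and 451 at an unadjusted p under 0.05), edgeR 0 and DESeq2 9 and 16, none of the 10 among them.

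**Figure D3:**
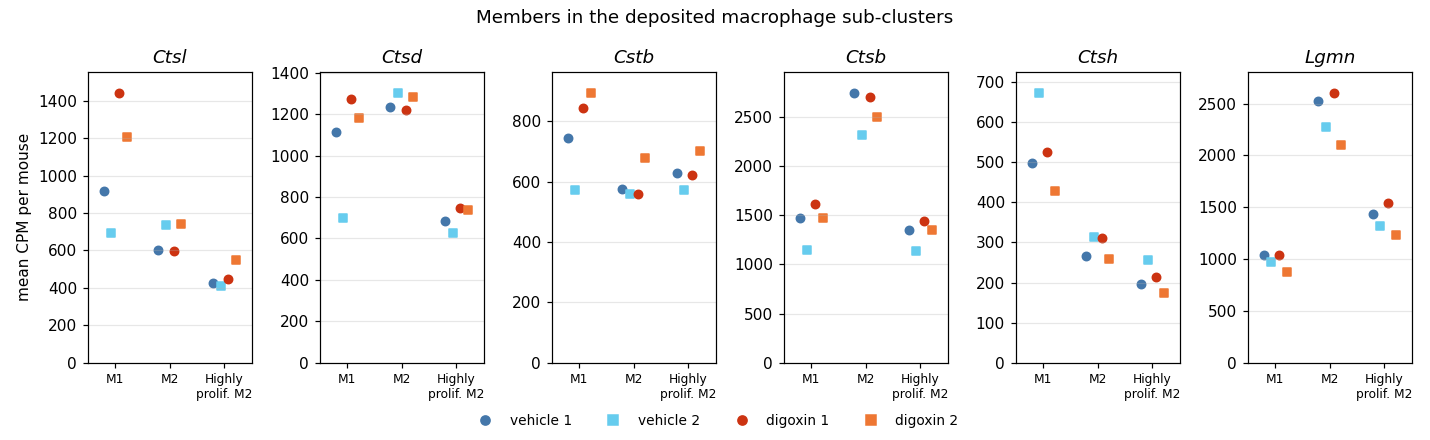
Mean CPM per mouse of 6 genes in the 3 deposited macrophage sub-clusters (vertical axes from 0, own scale per panel); circles and squares are replicates 1 and 2, blue vehicle and red digoxin. Ctsl in M1 lies between 694.7 and 918.9 CPM in the vehicle mice and between 1205 and 1439.9 CPM in the digoxin mice, while the groups overlap in M2; vehicle mouse 2 is low for Ctsd in M1.

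Ctsl was lower with digoxin in malignant cells and higher in non-malignant cells, and the gap between these differences was 0.50 on the log2 scale (non-malignant minus malignant, SE 0.07). Over the alternative settings and with each mouse left out it lay between 0.39 and 0.51. Ctsl was not higher with digoxin in every non-malignant type. Beyond macrophages its log2 difference was 0.37 in the NK type, 0.25 in the T cell type and 0.04 in the Microglia type. It was 0.00 in the Osteoclasts type, -0.05 in the Fibroblast type and -0.07 in the Epithelial type. The gap was 0.28 (SE 0.10) for Cstb, 0.24 (SE 0.07) for Ctsd, 0.21 (SE 0.07) for Lgmn and 0.19 (SE 0.07) for Ctsb. Lgmn had a lower mean with digoxin in both, at -0.30 in malignant and -0.09 in non-malignant cells, so its gap is not one of opposite directions. The malignant groups of Ctsd, Lgmn and Ctsb overlapped once the cells with 8 or more macrophage markers were left out. Ctsz (0.01) and Ctsa (-0.02) showed next to none. Ctss and Ctsc each had 0.22, and without the malignant cells with 8 or more macrophage markers these turned to -0.37 and -0.39; Ctsh turned from 0.13 to -0.10. Without vehicle mouse 1 Ctss was at -0.02. The gap was above 0 for 9 of the 10 genes, with a median of 0.21 against -0.02 over 14445 genes. Without the malignant cells with 8 or more macrophage markers it was above 0 for 5 of the 10, with a median of 0.06, and with the limit of 3 markers for 5, with a median of 0.03; without doublets the median was 0.11. The rule that chose the genes used this contrast. Limma called no gene for the gap (0%, 576 at an unadjusted p under 0.05), edgeR 0 and DESeq2 24, none of the 10 among them.

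The gap between M1 and M2 cells in their treatment difference, a comparison added after the data were seen, was 0.72 (SE 0.24) for Ctsl, and 0.37 to 1.07 with each mouse left out in turn. It was 0.49 for Ctsd (0.12 to 0.87), 0.29 for Cstb (0.12 to 0.46), 0.20 for Ctsb and -0.26 for Ctsh. For Ctsl and Ctsd the lowest of these values was that without vehicle mouse 2, the mouse that stood apart in Xist and Ddx3y. The part of that host difference in the gaps was not tested. No gene of 11932 was called by limma (0%, 706 at an unadjusted p under 0.05) or by edgeR, and DESeq2 called 8, none of the 10. The M1 and M2 values come from the same 4 libraries.

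**Figure D4:**
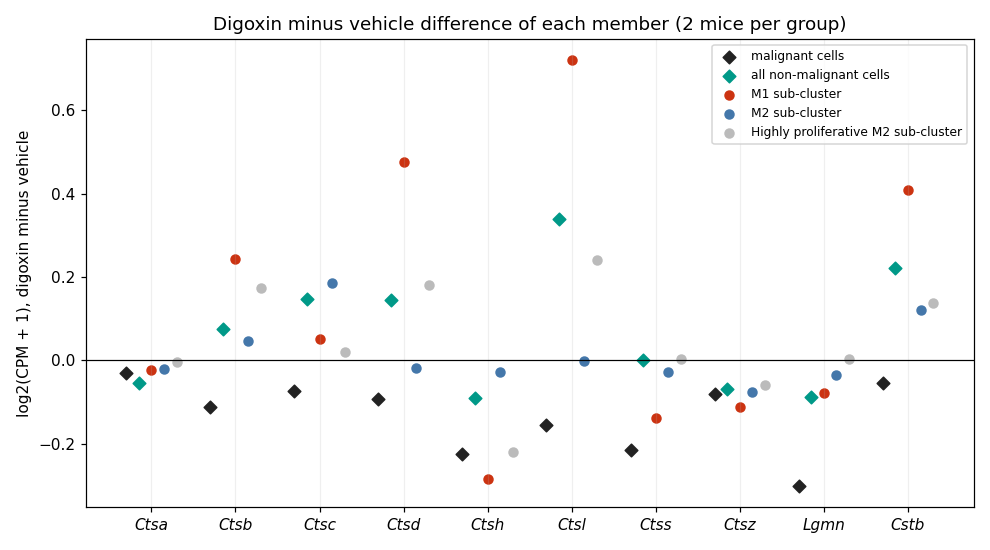
Difference of the mean log2(CPM + 1), digoxin minus vehicle, of each of the 10 genes (vertical axis; the line marks 0) in malignant cells, in all non-malignant cells and in the macrophage sub-clusters, 2 mice per group. Malignant cells lie below 0 for all 10 genes, and Ctsl shows the widest span, from -0.16 in malignant cells to 0.72 in M1 cells.

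Beyond macrophages, 6 deposited types had enough cells in every mouse for a fit. In the Epithelial type, limma called 48 of 10272 genes (0.467%), edgeR 0 and DESeq2 15, none of them among the 10; with summed UMIs or TMM scaling limma called 0. Of the 10, 4 had both digoxin mice above and 0 below, as did 17.8% and 16.3% of all genes. Ctss there was at 19.4 and 43.0 CPM with vehicle and at 105.0 and 53.6 CPM with digoxin (1.34), and Ctsc at 48.5 and 50.5 against 87.5 and 90.5 CPM (0.83). Ctsd was at 198.9 and 214.1 against 285.4 and 298.7 CPM (0.50) and Cstb at 119.7 and 87.1 against 156.5 and 150.6 CPM (0.58). Markers of other cells moved in the same direction in this type: the 10 macrophage markers summed to 508.1 and 1007 CPM with vehicle and 1359 and 1462 CPM with digoxin, and the mast cell markers to 59.4 and 223.4 against 3803 and 3721 CPM. Their part in these differences was not tested.

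In NK cells limma called 7 of 9147 genes (0.0765%), edgeR 17 and DESeq2 7, none of the 10. Of the 10, 7 had both digoxin mice above, against 19.1% of all genes. Ctsc, which in cytotoxic cells activates granzymes, was at 149.7 and 113.2 against 170.0 and 187.3 CPM (0.45). Ctss was at 92.9 and 100.8 against 121.6 and 128.1 CPM (0.36). Ctsh had the widest log2 difference, 1.66, on few UMIs: 44 and 5 with vehicle and 49 and 49 with digoxin, or 7.52 and 2.31 against 13.9 and 18.1 CPM. Ctsd was the single gene lower in both digoxin mice, at 804.1 and 672.9 against 660.0 and 652.9 CPM, as were 16.9% of all genes. Macrophage markers summed to 3641 and 3607 CPM in NK cells with vehicle and to 3694 and 3802 CPM with digoxin, also higher in both digoxin mice. Without cells marked as doublets limma called 0 genes (510 at an unadjusted p under 0.05), Ctsh was too low for the fit, and the median over the other 9 genes was 0.15, against 0.26 over the 10 with all cells. Ctsc was then at 0.16 and Ctss at 0.06.

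Elsewhere few of the 10 separated the groups. In the Microglia type Ctsd was at 129.5 and 148.7 CPM with vehicle and at 264.3 and 215.7 CPM with digoxin (0.78), and Lgmn was higher in both digoxin mice (0.47), while Ctsh was lower in both, at 1652 and 1641 against 1502 and 1328 CPM (-0.22). In this type 16.7% of all genes lay above and 16.2% below. In the Osteoclasts type Ctsa was at 465.6 and 590.9 against 392.4 and 427.3 CPM (-0.36), and Ctsd was lower too (-0.11), with 15.8% of genes below and 21.6% above; limma called 1 gene there (0.0128%), not 1 of the 10. In the Fibroblast type Lgmn was at 298.6 and 377.5 against 261.5 and 267.8 CPM (-0.34), with 19.4% of genes below, and Ctsc was higher (0.27), with 10.1% above. Ctss in fibroblasts, at 40.7 and 12.96 against 38.6 and 60.7 CPM, overlapped between the groups; the macrophage marker sum there was 546.5 and 156.7 against 843.1 and 747.9 CPM, lowest like Ctss in vehicle mouse 2 but not in the same order in the other mice. In T cells Cstb was at 135.2 and 127.3 against 168.4 and 162.4 CPM (0.33), with 14.3% of genes above.

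The B, Dendritic and Neutrophil types had 4 to 34 cells per mouse and were not fitted. Dendritic Ctsd was at 106.3 and 199.9 CPM with vehicle and at 37.5 and 51.3 CPM with digoxin, from 10 to 21 cells per mouse. The log2 differences of the 10 genes lay between -1.47 and -0.07 in the B type. They lay between -0.72 and 0.41 in the Neutrophil type, where only Cstb was above 0. In the Dendritic type they lay between -1.71 and 0.24, with Ctsc, Cstb and Ctsh above 0. Shares over all genes were not computed for these types. A type deposited as Unknown held 30 cells, all from vehicle mouse 2, with Ctsl at 5292 CPM.

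Other genes of the lysosome were compared through lists by function, in malignant cells first. Of 32 other hydrolases and cofactors, 1 was above 0, the median was -0.12, and 12 had both digoxin mice below, against the 16.5% of all genes given above. Over all genes, 8090 of 17138 were above 0. Of 16 proton pump subunits, which acidify the lysosome, 2 were above 0, the median was -0.08 and 7 lay below. Of 14 lysosomal membrane proteins 1 was above 0, with a median of -0.10 and 5 below. Psap, the precursor of the saposins, was at 392.3 and 407.5 against 378.3 and 345.8 CPM, and Npc2, a cholesterol carrier, at 567.0 and 561.2 against 531.4 and 469.7 CPM; both lay below. Of 6 other cathepsins Ctsk, a collagen-degrading enzyme, was at 68.4 and 86.7 against 58.4 and 56.3 CPM (-0.42), and Ctso at 20.1 and 19.0 against 18.3 and 15.3 CPM. Of 11 genes of sorting and transcription, 4 were above 0 and 2 lay below (median -0.04). None was called by limma. The macrophage markers were lower in the same cells, as given above, so the lists were also counted without the malignant cells with 8 or more markers. The hydrolases then had a median of -0.11 with 4 above 0 and 7 of 32 below both vehicle mice, the pump subunits -0.06 with 6 of 16 below, the membrane proteins -0.06 with 3 of 14 below and 2 above, the other cathepsins -0.11 with 2 of 6 below, and the sorting genes -0.01 with 1 of 11 below, where 14.8% of all genes lay below.

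In macrophages 5 of 32 hydrolases and 4 of 14 membrane proteins were above 0, as were 48.5% of all genes. The hydrolases had a median of -0.07, with 3 of 32 above and 6 below both vehicle mice (13.6% and 17.3% of all genes), the membrane proteins -0.07, with 2 of 14 above and 1 below, the pump subunits 0.00, with 2 of 16 above and 3 below, and the sorting genes -0.01, with 2 of 11 above. In M1 cells the hydrolases had a median of -0.09, with 9 of 32 above 0 (44.9% of all genes), 4 above both vehicle mice and 9 below (15.3% and 24%). There the pump subunits had a median of 0.06, with 11 of 16 above 0, 4 above both vehicle mice and 2 below, and the sorting genes 0.05, with 8 of 11 above 0, 4 above both vehicle mice and 1 below. The membrane proteins had a median of 0.01, with 7 of 14 above 0, 3 above both vehicle mice and 4 below, and the 5 other cathepsins tested -0.15, with 0 above both vehicle mice and 3 below. In the Osteoclasts type the hydrolases had a median of -0.22, with 13 of 32 below both vehicle mice (15.8% of all genes). In the Epithelial and NK types their medians were 0.08 and 0.09, with 10 of 30 and 11 of 31 above both vehicle mice (17.8% and 19.1%). For the gap between non-malignant and malignant cells, 16 of 32 hydrolases were above 0 (median 0.00), while the membrane proteins had a median of 0.06, the pump subunits 0.02, and the genes of sorting and transcription 0.10. Over all genes the median was -0.02. The lists were not recounted for this gap without the malignant cells with 8 or more macrophage markers. Among the other inhibitors, 3 of 6 cystatins listed were in both tables. Cst3, the secreted cystatin C, was at 1704 and 2374 against 1874 and 1834 CPM in macrophages, and Cst7 was at 9.24 and 10.1 against 5.16 and 4.51 CPM in M1 cells (-0.87). In the Epithelial type Cst7 and the lysosomal membrane protein gene Laptm5 were called higher with digoxin by limma, as were 0.448% of genes, but edgeR called no gene there. This is the type whose mast cell and macrophage markers were higher as well.

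Across the 8 populations, the profile of the 10 genes together (the mean of their standardized log2 levels) was ranked against 14869 genes. The most alike were Bank1 (Pearson r 0.977), Mucl1 (0.954), Zeb2 (0.947), Gla (0.946), which encodes the lysosomal alpha-galactosidase, and Cltc (0.944), the clathrin heavy chain. Mucl1 had a mean of at most 0.375 CPM in any population. The 10 genes themselves correlated with that profile at 0.282 (Ctsl) to 0.940 (Ctsz). Among their 45 pairs the highest values were 0.922 for Ctsb with Ctsz and 0.867 for Ctsc with Ctss, and the lowest was -0.589 for Ctsd with Ctsl. The 8 points come from the same 4 libraries, so these are descriptions.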

How the data were processed

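The authors deposited, for malignant and non-malignant cells, tables of natural log values, ln(1 + UMIs scaled to 10000 per cell), as read from the values, and metadata with UMI counts and detected genes per cell, replicate numbers and cell annotation. Per the submitters' processing notes, the build was mm10 and the tools included Cell Ranger 3.0.2 and Seurat 3.0.2. Filters, strand use and doublet removal are not given in the sources used here. The rest of the genotype label is not reported here. Mitochondrial UMIs reached 71.6% of a cell in the malignant table and 52.4% in the non-malignant table. Multiplying back by each cell's UMI total gave whole UMI counts within 0.01 for 100% of values.

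Per mouse and population, per-cell CPM was averaged and log2(mean CPM + 1) fitted with limma 3.58.1 (R 4.3.3) across all genes kept by edgeR's filter on low counts; calls are adjusted p under 0.05, Benjamini-Hochberg. Fold changes on this scale understate low genes. Gaps between compartments used an interaction with the mouse as block. Populations needed 20 cells per mouse. edgeR 4.0.16 and DESeq2 1.42.0 on the recovered counts, pseudocounts, filters, scalings, the replicate block, doublet (Scrublet in scanpy 1.11.5, expected share 0.06, 4.44% of 31611 cells marked) and mitochondrial filters and leaving out each mouse were alternatives. Doublets were kept in the main analysis. On counts simulated with a dispersion of 0.01, genes of at least 20 CPM were changed. The malignant, non-malignant and Macrophage fits recovered 100% of those changed 3-fold, and 63%, 59% and 54% of those changed 1.5-fold. False calls numbered 12, 2 and 5. The dispersion was a fixed setting, and whether it matches the spread between these mice was not tested. The shares hold for that setting only. Named genes were the 10 members, the 2 genes of each further list highest in macrophages and the 5 most alike in profile; genes named otherwise were chosen after their values were seen. Members and lists were chosen with earlier results of these data known.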

Additional observations from a re-analysis of the deposited data

How the results depend on the processing

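With 2 mice per group, counts of called genes depended on the method. Where limma called 0 genes, DESeq2 called 45 in malignant cells, 30 in non-malignant cells, 20 in macrophages, 42 in M1, 9 in M2 and 16 in Highly proliferative M2 cells, 24 for the compartment gap and 8 for the M1 to M2 gap. Leaving out each mouse in turn gave 0 to 5 genes in malignant cells, 0 to 27 in non-malignant cells, 0 to 132 in macrophages, 0 to 224 in M1, 0 to 50 in M2 and 0 to 256 in Highly proliferative M2 cells, 0 to 219 for the compartment gap and 0 to 250 for the M1 to M2 gap; the lone sample was then assumed to vary like the others. Over the 6 other types 56 genes were called, with edgeR 17, DESeq2 26, pseudocount 0.1 24, pseudocount 10 70, no filter 12, summed UMIs 9, TMM scaling 9, without doublets 29, without cells over 20% mitochondrial UMIs 33, and 33 to 1216 with a mouse left out.

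Of the 10 genes, limma called 0 in every comparison. The counts that follow rest on the differences for which the genes were chosen, so nothing is read from them. DESeq2 called 1 in M1 (Ctsl). Leaving out a mouse called 0 to 3 in M1 (1.77% of all genes at the maximum), 0 to 1 for the compartment gap (1.47%), 0 to 3 for the M1 to M2 gap (2.03%) and 0 to 5 over the other types (3.2% in the Epithelial type, 4.69% in the Fibroblast type and 1.48% in NK cells, where they fell), each maximum without vehicle mouse 1. Of 1170 alternative log2 differences of the 10 genes, 62 moved by more than the SD between mice of a group and 97 turned in sign. Within a single population, leaving out a mouse cannot move a difference by more than that SD. The replicate block and the gene filter leave the limma differences unchanged. The count of 62 is therefore not read as a measure of stability. The cause of the turns was not tested.

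Replicate numbers did not pair the mice (same-number deviations correlated at -0.363 in malignant cells). With the replicate block, limma called 2 genes in non-malignant cells, 2 for the compartment gap, 109 for the M1 to M2 gap (0.914%, 1 of the 10, Ctsl) and 168 over the other types. A crossed block, added after the data were seen, gave 0 genes in malignant cells and 40 in the Microglia type. Depth limits the low values: Ctsh in NK cells rests on 5 to 49 UMIs per mouse.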
